A study of Rattus norvegicus with 39 samples.

Results

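Polyribosome-associated mRNA of D1 and D2 neurons was compared in the nucleus accumbens (NAc) of female rats that had received repeated ketamine in diestrus, the stage of the estrous cycle that precedes proestrus. The comparison was chosen by the sample titles alone and holds 10 of the 39 libraries of the series, 5 from D1-Cre rats (libraries 4, 12, 20, 28 and 36) and 5 from D2-Cre rats (libraries 8, 16, 24, 32 and 40). Each library came from 1 rat, so the spread between libraries holds differences between animals together with those of pulldown and library preparation. All rats were adult Long Evans females, heterozygous for LE-Tg(Drd1a-iCre)3Ottc or for LE-Tg(Drd2-iCre)1Ottc, and all carried AAV9-DIO-Rpl22-3xHA-Ires-EYFP in the NAc, a virus that makes an HA-tagged ribosomal protein wherever Cre is present. Both groups received 6 injections of 10 mg/kg ketamine, an NMDA receptor blocker, usually 4 days apart and only in diestrus. Tissue was taken drug-free, 4 days after the last treatment and 30 min after a return to the test chamber. By the study's methods, only ketamine-treated rats whose locomotor response had grown over the treatments were used. Saline-treated females in diestrus (5 D1 and 5 D2 libraries) and ketamine-treated females in proestrus (5 D1 and 4 D2 libraries) had the same genotypes and virus and served here only as points of reference. Cell type and transgenic line cannot be told apart in this design, because every D1 library came from the D1-Cre line and every D2 library from the D2-Cre line.

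Medium spiny neurons (MSNs) are the GABAergic projection neurons of the striatum and NAc. D1-MSNs carry the dopamine D1 receptor, which raises cAMP, and the neuropeptides dynorphin and substance P. D2-MSNs carry the D2 receptor, which lowers cAMP, together with the adenosine A2A receptor and enkephalin. A tag that depends on Cre also marks any other cell in which the transgene is active, and the captured RNA can hold transcripts from neighbouring cells. In such a pulldown, fewer cells of a type and less RNA per cell cannot be told apart.

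The 10 libraries held 16175294 to 23533750 counts each, and the 200 most abundant genes took 24.8% to 25.8% of them. No pair of libraries in a group agreed within counting noise (chi-square per gene of 6.57 to 59.1 for genes with enough counts). On the first principal component, which held 26.5% of the variance, the D1 libraries scored from -22.1 to -4.96. The D2 libraries scored from 4.52 to 32.6, with the exception of library 40 at -8.2, which lay among the D1 libraries. Libraries 32 and 40 were also the ends of the first surrogate variable, a direction of unlabelled variation that was estimated from the data and included in the fit (-0.60 and 0.62). Elsewhere in the series, total counts reached from 2396517 (library 39, D2, diestrus, saline) to 43224256.

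**Figure D1:**
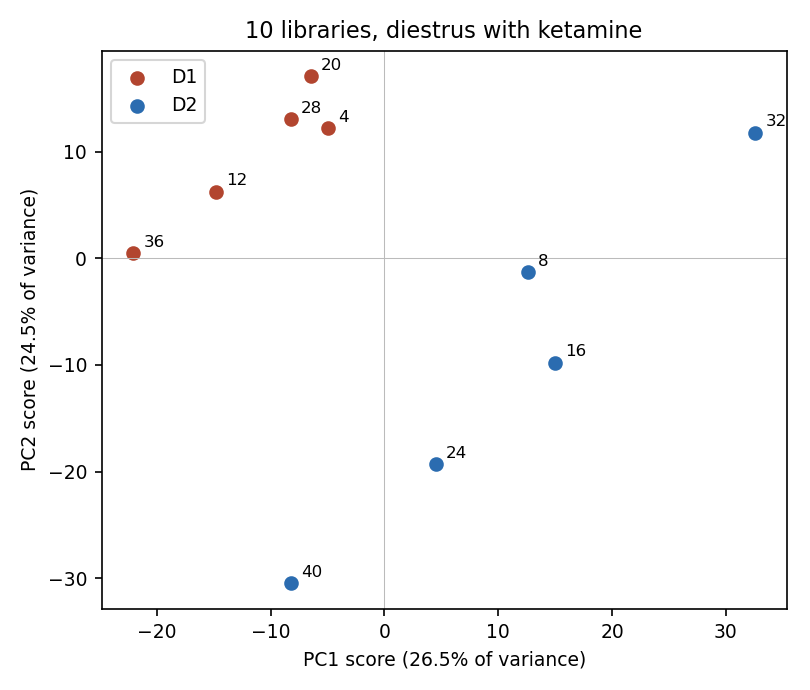
Scores of the 10 libraries on the first and second principal components of log2 normalized CPM, with the share of variance on each axis; points are libraries, labelled with their library numbers and coloured by cell type. Library 32 is the highest on the first component at 32.6 and library 40, also D2, lies at -8.2 among the D1 libraries.

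To ask which transcripts differed between the cell types after ketamine in diestrus, all 13358 genes with enough counts were tested together. A total of 1705 genes were called by the quasi-likelihood test of edgeR at a Benjamini-Hochberg adjusted p under 0.1, or 12.8% of those tested. Of these, 882 were D1-biased (6.60% of the genes tested) and 823 were D2-biased (6.16%). Most differences were small: the median absolute log2 fold change of the called genes was 0.39, 1060 of them changed by less than 0.5, and 197 by more than 1, with 85 of those D1-biased and 112 D2-biased. The lowest and highest libraries of the groups did not overlap in 625 genes, 4.68% of those tested, and 561 of these were among the called. The other 1144 called genes had overlapping groups. Without surrogate variables 611 genes were called, 262 D1-biased and 349 D2-biased, and 608 of them were among the 1705. With libraries 32 and 40 left out together, 1381 genes were called.

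**Figure D2:**
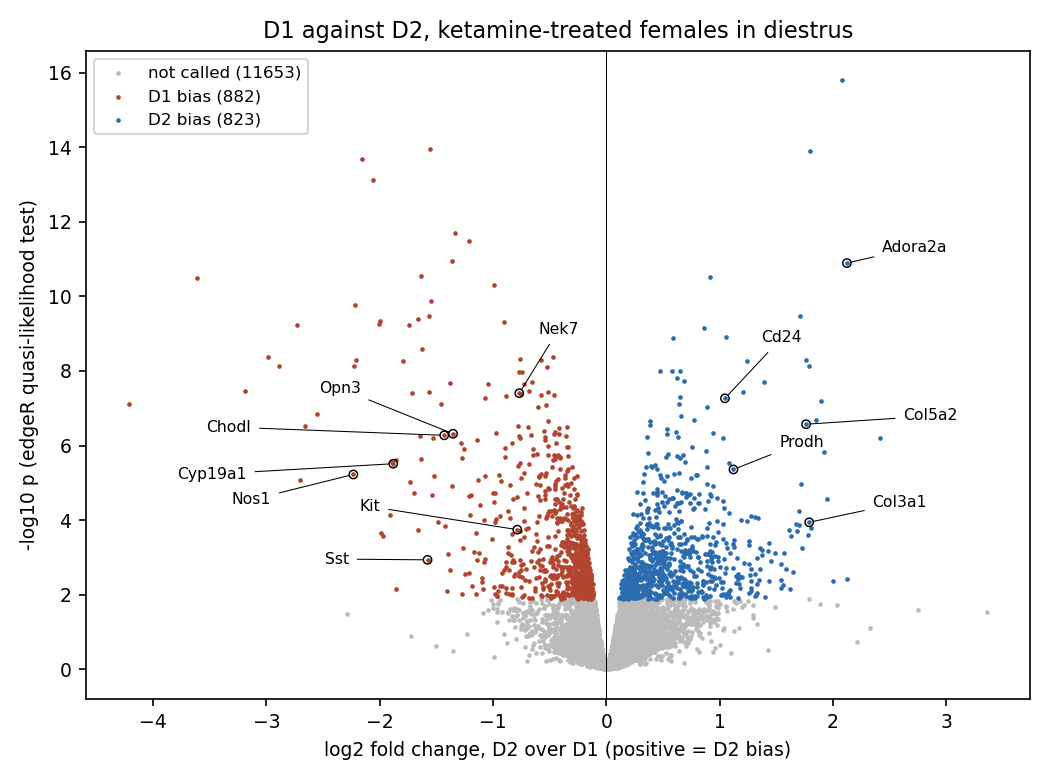
Log2 fold change (x axis, D2 over D1) against -log10 of the unadjusted p (y axis) for each of the 13358 genes tested; red points are the 882 D1-biased genes, blue points the 823 D2-biased genes and grey points those not called. Labelled genes are circled. Adora2a lies at 2.12 on the D2 side, and Nos1 has the most negative log2 fold change of the genes labelled, at -2.23.

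Rows of the count table carry Ensembl identifiers, 23978 in all, and a symbol was at hand for 1966 of them. Of the 1518 tested genes with a symbol, 190 were called (12.5%), of which 100 were higher in D1 and 90 in D2. Drd1, Drd2 and the peptide genes Pdyn, Tac1 and Penk are not named here, nor are markers of cholinergic interneurons or genes of sodium channels. Any of their rows with enough counts were still tested and counted under the identifier. In the lists below, only members that could be named were counted. The lowest p-values on each side belonged to identifiers without a symbol at hand, ENSRNOG00000008428 with a log2 fold change of 2.08 and ENSRNOG00000018279 with -1.55.

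The cell-type labels were first held against MSN markers. Adora2a (ENSRNOG00000001302), which encodes the adenosine A2A receptor of D2-MSNs, was measured at 184, 221, 141, 200 and 186 CPM (counts scaled by the normalized library size) in D1 libraries 4, 12, 20, 28 and 36. In D2 libraries 8, 16, 24, 32 and 40 it was measured at 921, 764, 1012, 452 and 956 CPM. Every D2 library therefore lay above every D1 library, with library 32 the lowest of the D2 group. The group levels were 186 ± 29.7 CPM in D1 and 821 ± 226 CPM in D2 (mean ± SD, n = 5 each), a log2 fold change of 2.12 (SE 0.08, edgeR adjusted p = 1.9e-08). A 2-sided exact permutation test of the library values gave p = 0.00794, the smallest that 5 against 5 allows. None of the 11 listed D1-MSN markers was among the identifiers with a symbol at hand, so the D1 label was checked only by the low Adora2a. Of the MSN genes shared by both cell types, Gad1, which encodes the GABA-synthesizing enzyme GAD67, was at 1117 ± 48.3 and 1090 ± 97.4 CPM, and Rgs9, a striatal inhibitor of G protein signalling, was at 301 ± 46.2 and 322 ± 77.7 CPM. Neither passed the test. The third, Adcy5, was called with a small D1 bias (log2 fold change -0.18, edgeR adjusted p = 0.0739). The summed level of Adcy5, Gad1 and Rgs9 was 2069 to 2293 CPM in the D1 libraries and 1851 to 2264 CPM in the D2 libraries, lowest in library 32.

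Of 34 listed receptors for dopamine, acetylcholine, opioids, other amines and adenosine, only 3 could be named here, all of them adenosine receptors. Of these, 2 were tested, Adora2a among them, and both were D2-biased, beside 6.16% of all genes. The other was Adora1, the inhibitory A1 adenosine receptor, at 115 ± 15.0 CPM in D1 and 129 ± 13.3 CPM in D2 (log2 fold change 0.18, SE 0.05, edgeR adjusted p = 0.044). Its libraries overlapped widely, from 92.6 to 131 CPM in D1 and from 108 to 141 CPM in D2. Its call was lost without surrogate variables (adjusted p = 0.478) and without library 20 or 24 (adjusted p = 0.382 and 0.152).

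Of 12 listed GABA interneuron markers, only 4 could be named here, so the result does not cover the others. All 4 were tested and called with a D1 bias, beside 6.60% of all genes tested. Their median log2 fold change was -1.5, beside -0.0028 for all genes tested. The groups did not overlap for 3 of them, Sst, Nos1 and Chodl, beside 4.68% of all genes, and overlapped for Kit. Sst and Nos1 encode the neuropeptide somatostatin and the neuronal nitric oxide synthase, which striatal interneurons produce together, and Chodl encodes chondrolectin, a membrane protein of the same cells. The summed level of the 4 genes was 298 to 749 CPM in D1 and 122 to 228 CPM in D2, with no overlap, and most of this sum was Sst.

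Sst (ENSRNOG00000001837) was at 515, 324, 223, 662 and 373 CPM in D1 libraries 4, 12, 20, 28 and 36. In D2 libraries 8, 16, 24, 32 and 40 it was at 145, 83.0, 167, 176 and 116 CPM. The D1 libraries spread widely among themselves, and the lowest of them still exceeded the highest D2 library. The log2 fold change was -1.58 (SE 0.28, edgeR adjusted p = 0.0211). Nos1 (ENSRNOG00000001130) was at 28.6, 25.1, 22.5, 40.6 and 38.1 CPM in D1 and at 4.69, 5.16, 7.99, 7.76 and 6.92 CPM in D2, in the same order of libraries. Its log2 fold change of -2.23 (SE 0.22, edgeR adjusted p = 4.7e-04) was the most negative of all named genes. Chodl fell from 10.8 ± 2.21 CPM in D1 to 4.01 ± 0.76 CPM in D2 (log2 fold change -1.43, edgeR adjusted p = 7.3e-05). Kit, which encodes the receptor tyrosine kinase for stem cell factor, was at 35.1 to 44.2 CPM in D1 and at 24.2, 31.1, 15.5, 40.1 and 13.0 CPM in D2. Library 32 lay within the D1 range of Kit and library 40 was the lowest of all, and the call (log2 fold change -0.79, edgeR adjusted p = 0.00572) was lost without surrogate variables (adjusted p = 0.277).

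**Figure D3:**
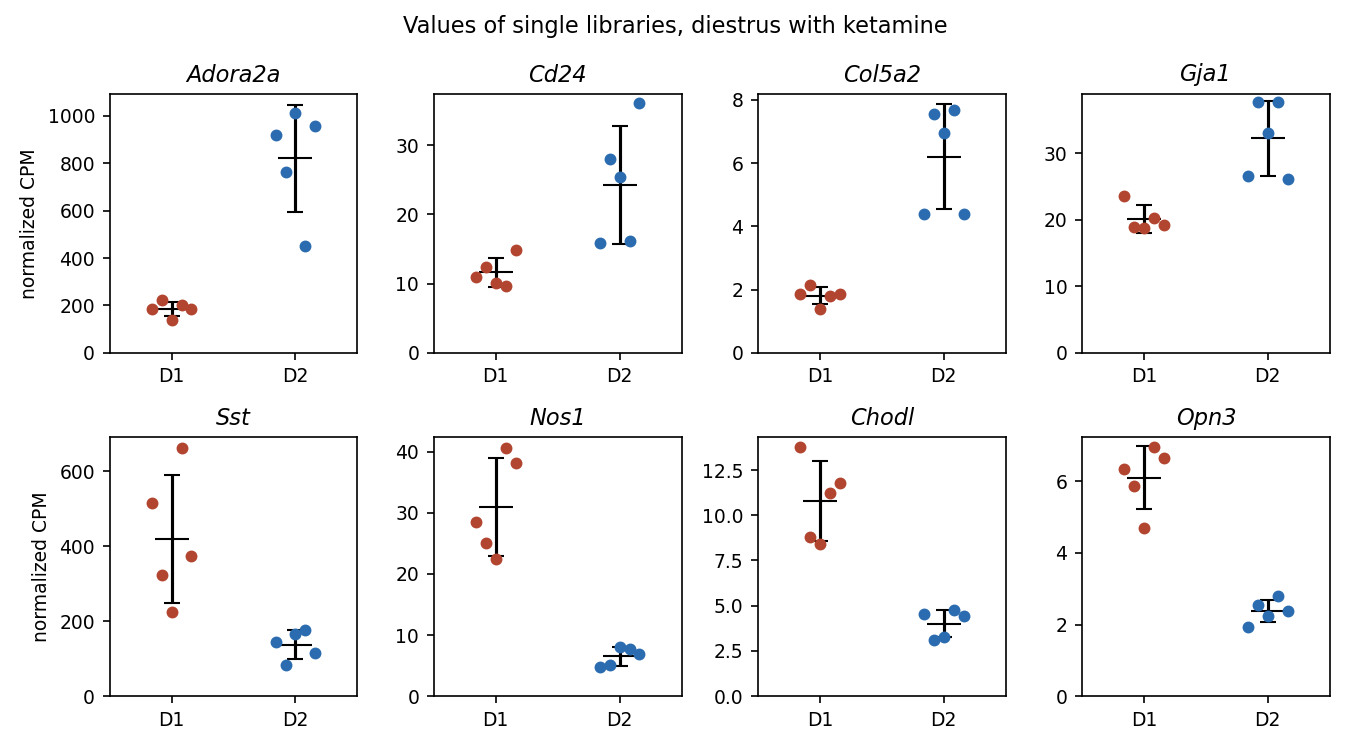
Normalized CPM of 8 genes in each library (y axes start at 0); red points are the 5 D1 libraries, blue points the 5 D2 libraries, and the black marks are group means with SD. For Adora2a, Cd24, Col5a2 and Gja1 the 5 D2 libraries lie above all D1 libraries, and for Sst, Nos1, Chodl and Opn3 they lie below.

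The start sites of Sst and Nos1 are shown because these members moved together and both hold the letters TGACGTCA, the palindromic cAMP response element to which CREB binds, in their promoter windows (RefSeq, build GRCr8, which is not the build the authors used). In each line the element is in capitals, and the sequence reads 5′ to 3′ on the strand of the gene. The Sst stretch is chr11:90461488-90461555 on the plus strand, and the element begins at base 3, with the annotated start as the first base. The Nos1 stretch is chr12:44371828-44371906 on the minus strand, and the element begins 9 bases before the annotated start.
Sst: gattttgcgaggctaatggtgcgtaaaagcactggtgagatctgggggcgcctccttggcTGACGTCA
Nos1: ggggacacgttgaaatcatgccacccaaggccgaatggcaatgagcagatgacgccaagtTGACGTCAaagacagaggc
Across windows of 250 bases before to 50 bases after the start, the element was found in 525 of 27457 rat genes (1.91%). Among tested genes with a symbol and a window it was in 2 of 68 D1-biased genes (2.94%), in 1 of 75 D2-biased genes (1.33%, Flt1) and in 38 of 1137 genes that were not called (3.34%). The D1-biased genes thus held it about as often as all tested genes (3.2%), and the 2 among them were Sst and Nos1. The windows of Chodl and Kit did not hold these letters.

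Beyond the interneuron list, the D1-biased genes with the lowest p-values among those with a symbol encoded kinases, enzymes and membrane proteins of several kinds. Nek7, a mitotic kinase that also takes part in inflammasome assembly, was at 42.2 to 72.3 CPM in D1 and 29.8 to 35.2 CPM in D2, without overlap (log2 fold change -0.77, SE 0.08, edgeR adjusted p = 9.23e-06). Opn3, a non-visual opsin, was at 6.34, 5.87, 4.70, 6.94 and 6.65 CPM in the D1 libraries and at 1.94, 2.54, 2.23, 2.79 and 2.39 CPM in the D2 libraries (log2 fold change -1.35, SE 0.16, edgeR adjusted p = 6.92e-05). Its levels were low and its groups did not overlap. Cyp19a1, which encodes aromatase, the enzyme that converts androgens to estrogens, was at 2.53, 2.23, 1.63, 3.03 and 3.30 CPM in D1 and at 0.55, 0.63, 0.58, 0.77 and 0.86 CPM in D2. Its groups did not overlap, and its log2 fold change of -1.88 (SE 0.26, edgeR adjusted p = 2.77e-04) was second only to that of Nos1 among the named D1-biased genes.

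Tmtc1, an enzyme that adds mannose to cadherins in the endoplasmic reticulum, was at 44.9 to 54.0 CPM in D1 and 22.9 to 36.2 CPM in D2 (log2 fold change -0.76, SE 0.10). Igfbp7, a secreted protein that binds insulin-like growth factors, was at 23.4 ± 2.83 CPM in D1 and 16.0 ± 1.75 CPM in D2 (log2 fold change -0.54, SE 0.08). Pde9a, a phosphodiesterase specific for cGMP, the messenger that nitric oxide raises, was at 29.1 ± 1.54 and 21.2 ± 1.70 CPM (log2 fold change -0.46, SE 0.07). These 3 genes had groups without overlap. Pcp4, a small calmodulin regulator, was at 450, 464, 321, 468 and 424 CPM in D1 and 362, 275, 358, 234 and 330 CPM in D2, so that D1 library 20 lay within the D2 range (log2 fold change -0.44, SE 0.06). Septin9, a cytoskeletal GTPase (log2 fold change -0.47, SE 0.06), and Lnx1, a ubiquitin ligase (log2 fold change -0.60, SE 0.09), also had overlapping groups, in both cases through library 32. All 6 had edgeR adjusted p-values from 7.03e-05 to 7.35e-04. The calls of Septin9 and Pcp4 were lost without surrogate variables (adjusted p = 0.291 and 0.112).

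On the D2 side, the gene with the lowest p-value after Adora2a among those with a symbol was Cd24, which encodes a small glycoprotein of the cell surface. It was at 11.0, 12.5, 10.2, 9.72 and 14.8 CPM in D1 and at 15.9, 27.9, 25.4, 16.2 and 36.0 CPM in D2. The nearest libraries were close, and D2 libraries 8 and 32 were the lowest of their group (log2 fold change 1.05, SE 0.11, edgeR adjusted p = 1.11e-05). Luc7l3, a splicing factor, differed little but evenly, with 104 to 122 CPM in D1 and 140 to 153 CPM in D2 (log2 fold change 0.35, SE 0.05, edgeR adjusted p = 3.24e-04). Ccdc85a likewise did not overlap, at 27.7 to 33.9 CPM in D1 and 34.8 to 42.4 CPM in D2 (log2 fold change 0.32, SE 0.06). Prodh, the mitochondrial enzyme that begins the breakdown of proline, was at 3.87 ± 0.63 CPM in D1 and 8.46 ± 2.34 CPM in D2 without overlap (log2 fold change 1.12, SE 0.16, edgeR adjusted p = 3.62e-04). Ogt, which adds N-acetylglucosamine to proteins, Fig4, a phosphoinositide phosphatase, and Psmg3, a proteasome assembly chaperone, were D2-biased with log2 fold changes of 0.27, 0.29 and 0.52, and their groups overlapped. The call of Fig4 was lost without surrogate variables (adjusted p = 0.126) and that of Psmg3 in a model of all 39 libraries (adjusted p = 0.121).

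Several extracellular matrix genes were D2-biased. Of 14 tested matrix and integrin genes, 4 were D2-biased and 0 were D1-biased, beside 6.16% and 6.60% of all genes. Of the 14, 12 had higher values in D2, and the median log2 fold change was 0.68 beside -0.0028. Among the 4 was Col23a1, which met the minimum count only through its D2 libraries, so its bias adds no support to these values. Col5a2, Col3a1 and Col11a2 encode chains of fibrillar collagens, and Col23a1 a transmembrane collagen. Col5a2 was at 1.85, 2.14, 1.39, 1.79 and 1.85 CPM in the D1 libraries and at 4.40, 7.56, 6.97, 7.67 and 4.41 CPM in the D2 libraries. Every D2 library lay above every D1 library, and libraries 8 and 40 were the lowest of the D2 group (log2 fold change 1.76, SE 0.20, edgeR adjusted p = 4.52e-05). Col11a2 was at 10.9 ± 1.52 CPM in D1 and 30.5 ± 10.4 CPM in D2 without overlap (log2 fold change 1.49, edgeR adjusted p = 0.0159). Col3a1 was at 0.64 to 1.70 CPM in D1 and at 3.26, 5.16, 3.62, 6.47 and 1.22 CPM in D2, where only library 40 lay within the D1 range (log2 fold change 1.79, edgeR adjusted p = 0.00407). Col23a1, at 0.35 ± 0.21 and 0.91 ± 0.42 CPM, was under 1 CPM on average (log2 fold change 1.45, edgeR adjusted p = 0.0222). Its D2 libraries were at 0.61 to 1.65 CPM, and its D1 libraries other than 28 at 0.16 to 0.39 CPM. It was therefore tested only because of the group where it was high. Its call was lost without surrogate variables (adjusted p = 0.115) and without library 20 or 24 (adjusted p = 0.129 and 0.142). Laminin genes Lamc1 and Lama4, at log2 fold changes of 0.04 and -0.13, did not pass the test.

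Of the glial and vascular markers tested, 2 of 3 for astrocytes, 2 of 2 for the oligodendrocyte lineage, 1 of 2 for vascular cells and 0 of 2 for microglia were D2-biased, beside 6.16% of all genes. Gja1, which encodes connexin 43 of astrocytic gap junctions, was at 23.6, 18.9, 18.7, 20.2 and 19.1 CPM in D1 and at 26.6, 37.6, 33.0, 37.7 and 26.1 CPM in D2 (log2 fold change 0.67, SE 0.10, edgeR adjusted p = 0.00107). Of the oligodendrocyte lineage markers, Pdgfra, the receptor that marks their precursors (log2 fold change 0.54, edgeR adjusted p = 0.0262), and Mog, a myelin protein (0.43, adjusted p = 0.0793), were D2-biased. S100b, a calcium-binding protein of astrocytes, was called with 0.23 (adjusted p = 0.0933), and Gfap, the astrocytic intermediate filament, with 0.45 was not (adjusted p = 0.105). Flt1, a VEGF receptor of endothelial cells, was at 2.31 to 4.01 CPM in D1 and 3.98 to 7.41 CPM in D2 (log2 fold change 1.03, SE 0.18, edgeR adjusted p = 0.00152), while the pericyte gene Rgs5 with 0.79 was not called. Neither microglia marker, Aif1 (0.62) or Tmem119 (0.05), passed the test. The calls of Pdgfra, Mog and S100b were lost without surrogate variables (adjusted p = 0.104, 0.187 and 0.416), and those of Gja1 and Flt1 were kept. Leaving out 1 library ended the call of Mog with any of 7 libraries and that of S100b with any of 9, at adjusted p up to 0.224 and 0.25.

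In sum over each list, astrocyte markers were at 102 to 145 CPM in D1 and 122 to 188 CPM in D2, Pdgfra and Mog at 10.6 to 13.5 and 13.5 to 19.7 CPM, and vascular markers at 2.96 to 5.66 and 5.51 to 10.5 CPM. Matrix and integrin genes summed to 80.8 to 93.4 CPM in D1 and 90.1 to 142 CPM in D2. Each of these 4 sums overlapped between the groups. Library 32 was the highest for the astrocyte and vascular sums, library 16 for that of Pdgfra and Mog. Library 32 also had the lowest Adora2a and MSN sum of the D2 group, and library 40 was the lowest of the D2 group for all 3 of the glial and vascular sums. These are markers of cells other than neurons, and their part in the D2 bias of the collagen genes was not tested.

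**Figure D4:**
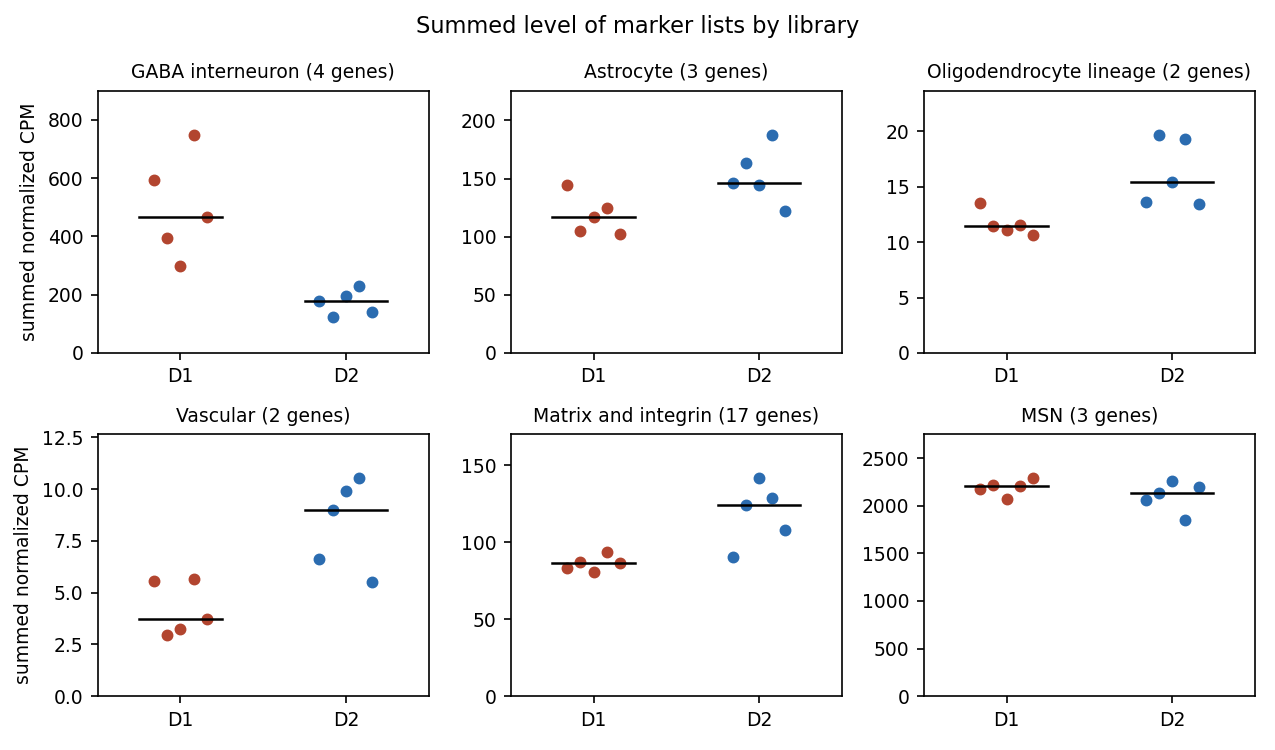
Summed normalized CPM of 6 marker lists in each library (y axes start at 0), with D1 libraries in red, D2 libraries in blue and group medians as black lines. Interneuron sums are higher in every D1 library (298 to 749 against 122 to 228 CPM), while astrocyte, oligodendrocyte, vascular and matrix sums are higher in D2 by the median and overlap.

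Of 6 tested G protein and cAMP genes, 3 were D1-biased and 1 was D2-biased, beside 12.8% of all genes called in either direction, and none had groups without overlap. Rgs4, an inhibitor of Gq and Gi signalling, was at 153 to 281 CPM in D1 and 113 to 206 CPM in D2 (log2 fold change -0.37, SE 0.09, edgeR adjusted p = 0.0209). Adcy5, the main adenylyl cyclase of the striatum, was at 776 ± 82.2 and 690 ± 174 CPM (log2 fold change -0.18, edgeR adjusted p = 0.0739), with library 32 at 445 CPM below the other D2 libraries. Adcy3 was at 162 ± 9.94 and 145 ± 13.1 CPM (log2 fold change -0.15, edgeR adjusted p = 0.0956). Rgs2, an inhibitor of Gq signalling, was D2-biased at 191 ± 21.9 and 229 ± 51.4 CPM (log2 fold change 0.25, edgeR adjusted p = 0.0596). All 4 calls were lost without surrogate variables, with adjusted p from 0.324 to 0.718. Leaving out 1 library also ended them, for Adcy3 and Adcy5 with any of 7 libraries, for Rgs2 with any of 6 and for Rgs4 with any of 5, at adjusted p up to 0.3, 0.498, 0.224 and 0.378.

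Among ionotropic glutamate receptors, the family that holds the NMDA receptor, Grin2c was D2-biased and Grik2 was D1-biased of 3 tested, beside 12.8% of all genes called in either direction. Grin2c, the NMDA receptor subunit GluN2C, was at 11.0, 12.6, 10.8, 10.6 and 9.95 CPM in D1 and at 14.8, 17.5, 17.8, 22.7 and 13.2 CPM in D2, without overlap and highest in library 32 (log2 fold change 0.62, SE 0.11, edgeR adjusted p = 0.00168). GluN2C is also made by astrocytes, and the part of astrocyte RNA in this value was not tested. Grik2, a kainate receptor subunit, was at 79.1 to 96.8 CPM in D1 and 70.0 to 90.1 CPM in D2 (log2 fold change -0.18, edgeR adjusted p = 0.0267). Of the metabotropic receptors, Grm4, a presynaptic receptor that lowers cAMP, was tested and D1-biased at 89.2 ± 9.60 and 76.2 ± 14.4 CPM (log2 fold change -0.23, edgeR adjusted p = 0.0277). The calls of Grik2 and Grm4 were lost without surrogate variables (adjusted p = 0.274 and 0.448), that of Grik2 also without library 20 (adjusted p = 0.128) and that of Grm4 without library 12 or 32 (adjusted p = 0.212 and 0.22).

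None of 8 tested GABA receptor genes was called, beside 12.8% of all genes, with a median log2 fold change of -0.04. The lowest p-value among them was that of Gabbr1, a GABA-B receptor subunit, at 1501 ± 45.7 CPM in D1 and 1400 ± 104 CPM in D2 (log2 fold change -0.10, edgeR adjusted p = 0.274). None of 4 calcium channel genes was called. Of 5 potassium channel genes, Kcnh1, a voltage-gated channel, was D1-biased (log2 fold change -0.28, edgeR adjusted p = 0.0032) and Kcnk2, a leak channel, D2-biased (0.22, adjusted p = 0.0522). Both overlapped between groups, and both calls were lost without surrogate variables (adjusted p = 0.529 and 0.548), that of Kcnk2 also without library 8 or 12 (adjusted p up to 0.106). Of 8 SNARE genes and partners 1 was called, a share near the 12.8% of all genes. It was Stx2, a plasma membrane syntaxin, with 3.90 to 5.81 CPM in D1 and 6.26 to 8.91 CPM in D2 (log2 fold change 0.69, SE 0.14, edgeR adjusted p = 0.00692). Of 24 listed immediate early genes, only Egr2, Btg2 and Sik1 could be named here. None of these 3 was called, and they are too few to speak for the class. Egr2, a transcription factor that neuronal activity induces, ranged from 10.1 to 27.8 CPM in D1 and from 11.4 to 34.2 CPM in D2. Of the dense core vesicle list, Vgf, a peptide precursor that neurons release, was at 475 ± 57.8 and 445 ± 69.3 CPM and was not called, so that Sst was its called member.

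Of 8 genes of axon guidance and synaptic adhesion, 2 were called and both had a D1 bias without overlap, beside 6.60% of all genes with a D1 bias and 4.68% without overlap. Flrt2, a membrane protein that binds Unc5 receptors and latrophilins, was at 68.5, 73.0, 72.5, 73.1 and 64.4 CPM in D1 and at 48.8, 53.1, 57.6, 43.5 and 51.5 CPM in D2 (log2 fold change -0.46, SE 0.06, edgeR adjusted p = 1.91e-04). Slit2, a secreted repellent of growing axons, was at 53.2 ± 2.26 and 43.6 ± 7.67 CPM (log2 fold change -0.29, edgeR adjusted p = 0.00699), with D2 libraries 24 and 40, at 50.1 and 50.8 CPM, just below the lowest D1 library at 51.3 CPM. The call of Slit2 was lost without surrogate variables (adjusted p = 0.198). Sema5b, Sema6a, Ntn1, Unc5b, Nlgn3 and Epha5 had log2 fold changes from -0.21 to 0.17 and were not called.

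The same contrast was next made in saline-treated diestrus females and in ketamine-treated proestrus females, which share no library with the comparison above. It called 546 genes after saline in diestrus (4.11% of 13292) and 748 genes after ketamine in proestrus (5.61% of 13339). Of 13186 genes tested in both diestrus comparisons, 381 were called in both, 22.5% of the ketamine calls and 70.0% of the saline calls, and all 381 had the same direction (245 D1-biased and 136 D2-biased). With ketamine in both stages 536 of 13218 genes were called in both, 31.6% of the diestrus calls and 72.1% of the proestrus calls, again all in the same direction. The 1312 genes called with ketamine and not with saline in diestrus had the same sign after saline in 82.1% of cases, beside 58.5% of the genes called in neither. These numbers moved with 1 library and with the adjustment: without library 39, 926 genes were called after saline and 578 of these were shared with ketamine, and without surrogate variables the order turned, with 1076 genes after saline and 611 after ketamine.

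Adora2a, Cd24 and the interneuron genes had the same bias in all 3 comparisons. The log2 fold change of Adora2a was 2.12 with ketamine in diestrus, 2.4 with saline in diestrus and 2.28 with ketamine in proestrus, and that of Cd24 was 1.05, 1.1 and 1.03. Nos1 had log2 fold changes of -2.23, -1.84 and -1.40, Sst of -1.58, -1.47 and -1.42, Chodl of -1.43, -1.11 and -1.22, and Kit of -0.79, -0.70 and -0.74. All of these values passed the test in their own comparison. Cyp19a1 was -1.88, -1.44 and -1.67, and its value after saline did not pass (edgeR adjusted p = 0.196).

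**Figure D5:**
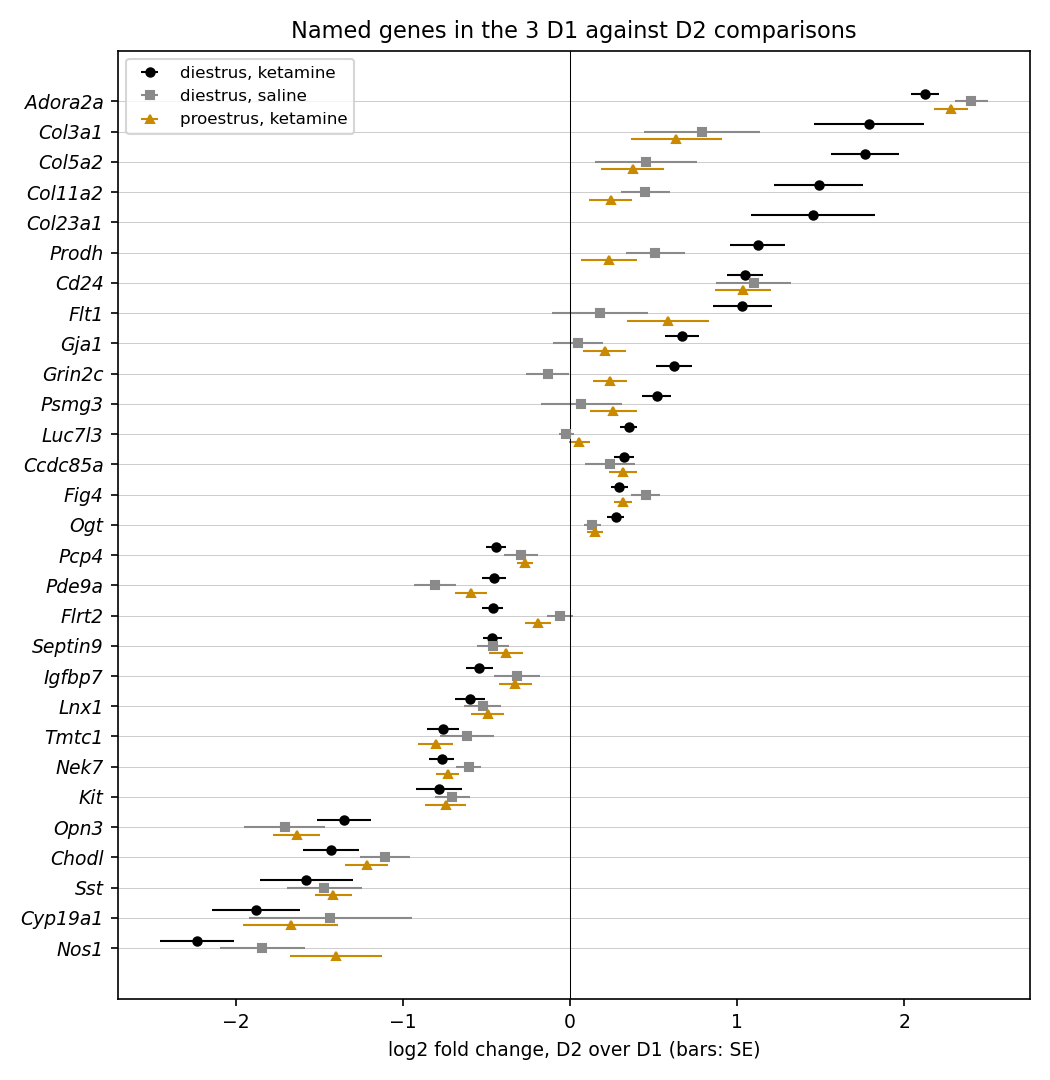
Log2 fold change of D2 over D1 with its SE (x axis) for called genes with the lowest p-values or largest changes (y axis), in diestrus with ketamine (black circles), diestrus with saline (grey squares) and proestrus with ketamine (orange triangles). Adora2a lies between 2.12 and 2.4 in the 3 comparisons, and Col5a2 at 1.76 in diestrus with ketamine and at 0.45 and 0.37 in the others.

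For Col5a2, Gja1 and Flt1 the log2 fold changes were smaller in the other comparisons. Col5a2 was 1.76 with ketamine in diestrus, 0.45 with saline in diestrus and 0.37 with ketamine in proestrus, Gja1 was 0.67, 0.05 and 0.21, and Flt1 was 1.03, 0.18 and 0.59, and only the first value of each passed the test. The interaction terms, fitted over all libraries of both comparisons, were 0.38, 0.03 and 0.11 for treatment (unadjusted p = 0.481, 0.925 and 0.79) and 1.07, 0.39 and 0.28 for stage (unadjusted p = 4.29e-04, 0.0296 and 0.332), and none passed the correction over all genes. Col5a2 was at 6.20 ± 1.66 CPM in D2 with ketamine in diestrus and at 5.28 ± 3.83 CPM in D2 with saline, where libraries 7, 15, 23, 31 and 39 gave 11.9, 3.85, 4.38, 2.06 and 4.16 CPM. Gja1 was at 53.4 CPM in library 7 and at 22.6 to 25.2 CPM in the other D2 saline libraries. For both genes library 7 lay above every D2 library with ketamine in diestrus, and the other 4 D2 saline libraries lay below all of them. Library 7 was also the highest of its group for the astrocyte, oligodendrocyte, vascular and matrix sums, as library 6 was among the D2 libraries with ketamine in proestrus. Without surrogate variables the saline log2 fold changes rose to 1.41 for Col5a2 (adjusted p = 0.0763), 2.04 for Col3a1 (adjusted p = 0.0788), 0.55 for Gja1 (adjusted p = 0.231) and 0.80 for Flt1 (adjusted p = 0.204). Without library 39, the smallest of the saline libraries, Col11a2 (0.67, adjusted p = 0.0187) and Col3a1 (1.16, adjusted p = 0.0418) were called as D2-biased after saline too. In proestrus without surrogate variables Col5a2 was at 0.62 (adjusted p = 0.509). The part of library 7 in these values was not tested.

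Whether the D1 to D2 difference itself changed was tested by an interaction term. No gene was called for treatment within diestrus (13738 tested, 347 at an unadjusted p under 0.05). None was called for stage with ketamine either (13850 tested, 530 at an unadjusted p under 0.05). DESeq2 with 2 surrogate variables, estimated anew, called 1 gene for treatment and 4 for stage. Without D2 library 6 of the proestrus group, edgeR called 7 genes for stage. By treatment, the lowest p-values among genes with a symbol were those of Flrt2 and of Mylk, the myosin light chain kinase. Flrt2 was at -0.46 with ketamine and at -0.06 with saline, which did not pass the test (adjusted p = 0.83; interaction -0.35, SE 0.10, unadjusted p = 0.00166, edgeR adjusted p = 1). Mylk was at 0.62 with ketamine and -0.86 with saline, and neither value passed its own test (adjusted p = 0.105 and 0.39; interaction 1.08, SE 0.34, unadjusted p = 0.00486, edgeR adjusted p = 1). In the D2 saline group Mylk was at 0 CPM in library 39, which had the lowest total count. By stage they were those of Col5a2 (interaction 1.07, SE 0.26, unadjusted p = 4.29e-04, edgeR adjusted p = 0.776) and Rasd1, a Ras-related protein that glucocorticoids induce (interaction -0.56, SE 0.14, unadjusted p = 4.48e-04, edgeR adjusted p = 0.776). Rasd1 was D2-biased by 0.53 with ketamine in proestrus (adjusted p = 0.00621) and was at 20.6 ± 2.85 CPM in D1 and 20.4 ± 2.36 CPM in D2 in diestrus. For all 4 genes the difference between comparisons did not pass the correction over all genes.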

How the data were processed

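RNA bound to HA-tagged polyribosomes was immunoprecipitated from NAc punches of single rats, and stranded poly(A) libraries were sequenced. Per the labels and methods, the authors used fastp 0.23.4, FastQC 0.12.1 and Salmon 1.10.2 against mRatBN7.2 with Ensembl annotation, and tested genes with DESeq2 1.42.1. The deposited values are estimated counts per gene, summed from transcripts and given as whole numbers in a table of all 39 libraries. The remaining steps were made from these counts. For each comparison, genes were kept by filterByExpr (minimum count 10), normalized by TMM and fitted with group means and 2 svaseq surrogate variables, as the study's methods use surrogate variables, in edgeR 4.0.16 (quasi-likelihood, robust; sva 3.50.0, R 4.3.3). Benjamini-Hochberg adjusted p under 0.1 was the threshold of the study. Positive log2 fold changes are D2-biased, SE is |log2 fold change| divided by the root of F, and CPM is TMM-normalized over all libraries. Adora2a was also compared by an exact permutation test of log2(CPM + 0.5). Symbols were taken from the study's own pairs of identifier and symbol, of which only a part was at hand. The members and gene lists were chosen with earlier results of these data known. Genes were named by a rule: markers, the 12 lowest p-values and the 5 largest changes in each direction, up to 3 called genes in each direction of a list or its lowest p-value, and the lowest p-values of each interaction. A total of 2 genes are not reported here and were left out of the lists. The depth of 16175294 to 23533750 counts limits precision for genes under about 1 CPM. Alternatives were DESeq2 1.42.0, other numbers of surrogate variables, size factors, filters, thresholds, a fit of all libraries and leaving out libraries. The fits were also run on simulated counts. These held no unlabelled variation, so they cannot check what the surrogate variables remove.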

Additional observations from a re-analysis of the deposited data

Results flagged for a closer look

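Of 102 sets of 5 library values that were screened (50 named genes and the total counts in each group), 3 held a library whose gap to its nearest neighbour exceeded 0.71 of the whole range, Dixon's limit for 5 values. Chance alone gives such a gap in about 1 of 20 sets. Library 40 had the lowest total of the D2 group, 16175294 counts, beside 21801099 to 23533750 in the others. Nek7 was at 35.2 CPM in D2 library 8, beside 29.8 to 30.6 CPM in the other D2 libraries, and stayed below every D1 library. Col23a1 was at 1.65 CPM in D2 library 24, beside 0.61 to 0.82 CPM.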

How the results depend on the processing

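No paired analysis was made, because no label links a D1 library to a D2 library. Of the 43 called genes that are named, all kept their direction in the 21 other settings (20 for Col23a1, which was not tested with 10 counts in every library), 24 kept their call in all of them and 32 kept it with any 1 library left out. Of these 43 calls, 18 were lost without surrogate variables, 14 by DESeq2 without them, 9 with 1 surrogate variable, 9 in a model of all 39 libraries and 6 without libraries 32 and 40. The number of called genes was 611 without surrogate variables (262 D1-biased and 349 D2-biased) and 994 by DESeq2 without them (437 D1-biased), beside 1705, 1819 by DESeq2 with 2 surrogate variables, 2204 with the 3 that num.sv estimated (1230 D1-biased and 974 D2-biased), and 1156 to 2129 with 1 library left out, with 605 to 1041 D1-biased and 551 to 1088 D2-biased. The cause of the lower counts was not tested. DESeq2 with 2 surrogate variables called 1 gene for cell type by treatment and 4 for cell type by stage, and leaving out D2 proestrus library 6 gave 7 for stage, the highest of 0 to 7. After saline in diestrus, the count was 1076 without surrogate variables, 1339 by DESeq2 without them and 926 without library 39, where 578 were shared with ketamine. After ketamine in proestrus it was 447 without surrogate variables, where 245 were shared. Of the values not called, Rasd1 (-0.0012) turned to 0.0052 with 1 surrogate variable, 0.012 without the filter, 0.0031 with 10 counts in every library and 0.0897 without libraries 32 and 40, and ranged from -0.0462 to 0.0597 with 1 library left out. Egr2 (0.15) turned to -0.0899 in a model of all libraries and ranged from -0.16 to 0.35. In the reference comparisons Mog, Pdgfra and S100b after saline turned from -0.01, -0.45 and -0.14 to 0.37, 0.12 and 0.12 without surrogate variables, Mog to 0.19 without library 39, and S100b after ketamine in proestrus from -0.0038 to 0.081. Leaving out libraries 32 and 40 together or library 39, and the values of glial, vascular and matrix genes in the reference comparisons without surrogate variables, were chosen after the data were seen.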
